A study of Arabidopsis thaliana with 33 samples.

Results

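The UGT genes of Arabidopsis thaliana encode UDP-dependent glycosyltransferases. They were taken here as every gene of the RNA tables whose symbol is UGT followed by digits, which gave 105 of 32823 genes, and the same identifiers were followed in the gene tables of histone H3 acetylation (H3ac). The members lay on all nuclear chromosomes, with 23, 26, 22, 14 and 20 genes on chromosomes 1, 2, 3, 4 and 5. The study compared 12-day-old seedlings, grown untreated on MS medium plates under long days, of mutants in genes that the series title ties to a Harbinger-transposase-derived complex with HDA6, a histone deacetylase. The mutants were hhp1 (a T-DNA insertion line), mbd124 (the mbd1/2/4 triple mutant of 3 methyl-CpG-binding-domain genes), sant1234-null (a quadruple mutant) and hda6 (a T-DNA insertion line), all set against wild-type Col-0 (WT). RNA-seq covered the 5 genotypes with 3 replicates each. H3ac ChIP-seq covered sant1234-null, hda6 and WT with 3 replicates each, beside input libraries that were not analysed here.

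UGT enzymes move a sugar from a UDP-sugar donor onto small acceptor molecules such as hormones, flavonoids, phenylpropanoids, glucosinolate precursors and foreign compounds. The sugar usually makes the acceptor more soluble, less active or ready for storage in the vacuole, and a conserved plant signature near the carboxyl end of the enzyme holds the donor. Acetyl groups on histone H3 mark the promoters and early gene bodies of transcribed genes, and HDA6 is an enzyme that removes them.

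The sequences bore the family name out for most members. Of the 105 genes, 74 held the full plant signature of 44 codons (132 bases) in their longest coding sequence, and 101 held a looser form of it. The 4 without it were UGT78D1, UGT79B11 and the sterol glucosyltransferase genes UGT80A2 and UGT80B1. The encoded proteins were 435 to 637 residues long, with a median of 467. A total of 64 members stood in 21 arrays, in which neighbouring members lay within 10000 bases of each other, and 41 stood alone. Sets of 50-base windows of each gene were searched in the whole genome to see where reads of copies could be mixed. No window of 68 members occurred elsewhere, whereas over 10% of windows did in 3 members, UGT79B3 (21.3%), UGT79B2 (19.5%) and UGT73C4 (10.1%), whose values are therefore uncertain. In addition, 25 members overlapped another listed gene, 22 of them on the opposite strand. Whether strand was used in counting is not given in the sources used here. The values of those genes are uncertain too.

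The RNA tables gave 1 FPKM (fragments scaled to transcript length and sequencing depth) for each genotype and no replicate values, so no level below has a replicate spread. The FPKM values are the authors', and WT carries a slightly different value in each table because the tables were scaled separately. Calls are those of the authors' test, in the layout of Cuffdiff, at a q-value (Benjamini-Hochberg adjusted p over all tested genes) under 0.05. Log2 changes were computed from FPKM, and their standard errors (SE) from the deposited test statistic. The series design text calls the RNA replicates independent. The labels do not say how seedlings were split between them, so the p-values cover the spread between these libraries, which may be technical. All mutants were set against the same WT libraries, so their changes against WT are not independent of each other.

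As a check of the labels, MBD1 stood at 0.0476 FPKM in mbd124 and 15.5 in WT, and MBD4 at 0.208 in mbd124 and 21.8 in WT, although neither was called in the authors' deposited table (q = 0.619 and 0.177). In the authors' deposited table MBD2 stood at 6.45 FPKM in mbd124 and 17.5 in WT (q = 0.000861). HDA6 RNA was at 18.8 FPKM in hda6 and 17.0 in WT (q = 0.735 in the authors' deposited table), which does not check that label, so hda6 stands throughout for the libraries so labelled. The labels gave no identifier for the other mutated genes. Of 4 tested leaf markers, 1 was called lower in each of hhp1, mbd124 and sant1234-null and none in hda6. Their summed level was 8095 FPKM in hhp1, 8446 in mbd124, 8532 in sant1234-null and 8874 in hda6, against 10572 to 10807 FPKM in WT. Of 5 root markers, LRX1 was called lower in hhp1 and mbd124, and IRT1 was called higher in sant1234-null and hda6. Their summed level was 104 FPKM in hhp1, 112 in mbd124, 118 in sant1234-null and 131 in hda6, against 105 to 108 FPKM in WT. The floral gene PI, of 2 floral markers, was called higher in hhp1 (1.66 FPKM) and sant1234-null (3.14 FPKM), against 0.566 to 0.567 FPKM in WT, while AP3 was untested at 0.0328 to 0.158 FPKM. The seed storage gene CRA1, of 2 seed markers, was called higher in mbd124 (2.15 FPKM) and hda6 (0.988 FPKM), against 0.409 and 0.402 FPKM in WT, while AT2S1 was listed at 0 in WT. The part of these shifts in the UGT values was not tested. In whole seedlings, fewer cells of a type and less RNA per cell cannot be told apart.

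Their median WT level was 4.60 FPKM and their highest 78.3, against a median of 3.33 FPKM over all genes. In WT 26 members were below 1 FPKM, 45 between 1 and 10 and 34 at 10 or more. UGT73C2, UGT79B6, UGT84B1 and UGT84B2 were listed at 0 in WT. The UGT76 genes, the most numerous subfamily with 19 members, had a median of 2.86 FPKM in WT, and the 7 UGT74 genes one of 18.4 FPKM.

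The 8 members with the highest WT levels included both well-known lignin-related enzymes and stress hormone enzymes. UGT72E2, which glucosylates monolignols, had 77.7 FPKM in hhp1, 75.3 in mbd124, 79.6 in sant1234-null and 70.3 in hda6, against 76.7 to 78.4 FPKM in WT, and no mutant was called. UGT72E1, of the same subfamily, had 66.8 FPKM in hhp1, 64.4 in mbd124, 85.0 in sant1234-null and 71.5 in hda6, against 58.3 to 59.6 FPKM in WT. The rise of UGT72E1 in sant1234-null passed the test (log2 change 0.51 ± 0.16 SE, q = 0.0148 in the authors' deposited table). UGT72B1, which conjugates monolignols and chlorinated pollutants, had 52.4 FPKM in hhp1, 36.3 in mbd124, 43.1 in sant1234-null and 43.9 in hda6, against 43.6 to 44.6 FPKM in WT, with no call. The sant1234-null rise of UGT72E1 was thus the one call among these abundant UGT72 genes. UGT88A1 had 59.4 FPKM in hhp1, 44.2 in mbd124, 48.2 in sant1234-null and 48.1 in hda6, against 64.1 to 65.5 FPKM in WT. It was called lower in mbd124 (log2 change -0.56 ± 0.16 SE, q = 0.00373 in the authors' deposited table) and in sant1234-null (-0.44 ± 0.16 SE, q = 0.0416 there). UGT71C5, the main enzyme that makes the glucose ester of abscisic acid, had 33.2 FPKM in hhp1, 43.0 in mbd124, 42.7 in sant1234-null and 36.0 in hda6, against 35.1 to 35.9 FPKM in WT, with no call. UGT74B1, which adds the glucose of the glucosinolate core, had 32.0 FPKM in hhp1, 33.4 in mbd124, 35.6 in sant1234-null and 36.8 in hda6, against 33.3 to 34.1 FPKM in WT, again with no call.

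Of the 105 members, 85 were tested in all 4 tables, 7 in some and 13 in none, the others being marked as not tested in the authors' tables. In hhp1, 7 of 88 tested members were called higher and 2 lower, or 10.2% of those tested, against 6.14% called over all genes. In mbd124, 8 of 88 were called higher and 16 lower, or 27.3%, against 11.3% over all genes. In sant1234-null, 19 of 90 were called higher and 7 lower, or 28.9%, against 15.3% over all genes. In hda6, 8 of 88 were called higher and 8 lower, or 18.2%, against 12.0% over all genes. By direction, 7.95% of the tested members were called higher in hhp1 (2.88% of all genes), 9.09% in mbd124 (4.85%), 21.1% in sant1234-null (9.33%) and 9.09% in hda6 (7.25%). Called lower were 2.27% in hhp1 (3.26% of all genes), 18.2% in mbd124 (6.42%), 7.78% in sant1234-null (5.93%) and 9.09% in hda6 (4.79%). The median log2 change of the tested members was 0.10 in hhp1, 0.10 in mbd124, 0.21 in sant1234-null and 0.06 in hda6, and that of all tested genes lay between -0.00 and 0.02. Called with an absolute log2 change of at least 1 were 2 members in hhp1 (1.34% of all genes), 3 in mbd124 (3.49%), 7 in sant1234-null (5.51%) and 3 in hda6 (4.60%). The shares are descriptions, since members that neighbour each other or share sequence are not independent. Altogether 49 members were called in at least 1 mutant and 56 in none. Of the 49, 31 were called in 1 mutant, 12 in 2, 4 in 3 and 2 in all 4. A total of 26 were called higher only, 20 lower only and 3 in opposite directions in different mutants. No share over all genes was computed for counts across mutants, here or for the arrays below. Whether these counts are high was therefore not tested.

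**Figure D1:**
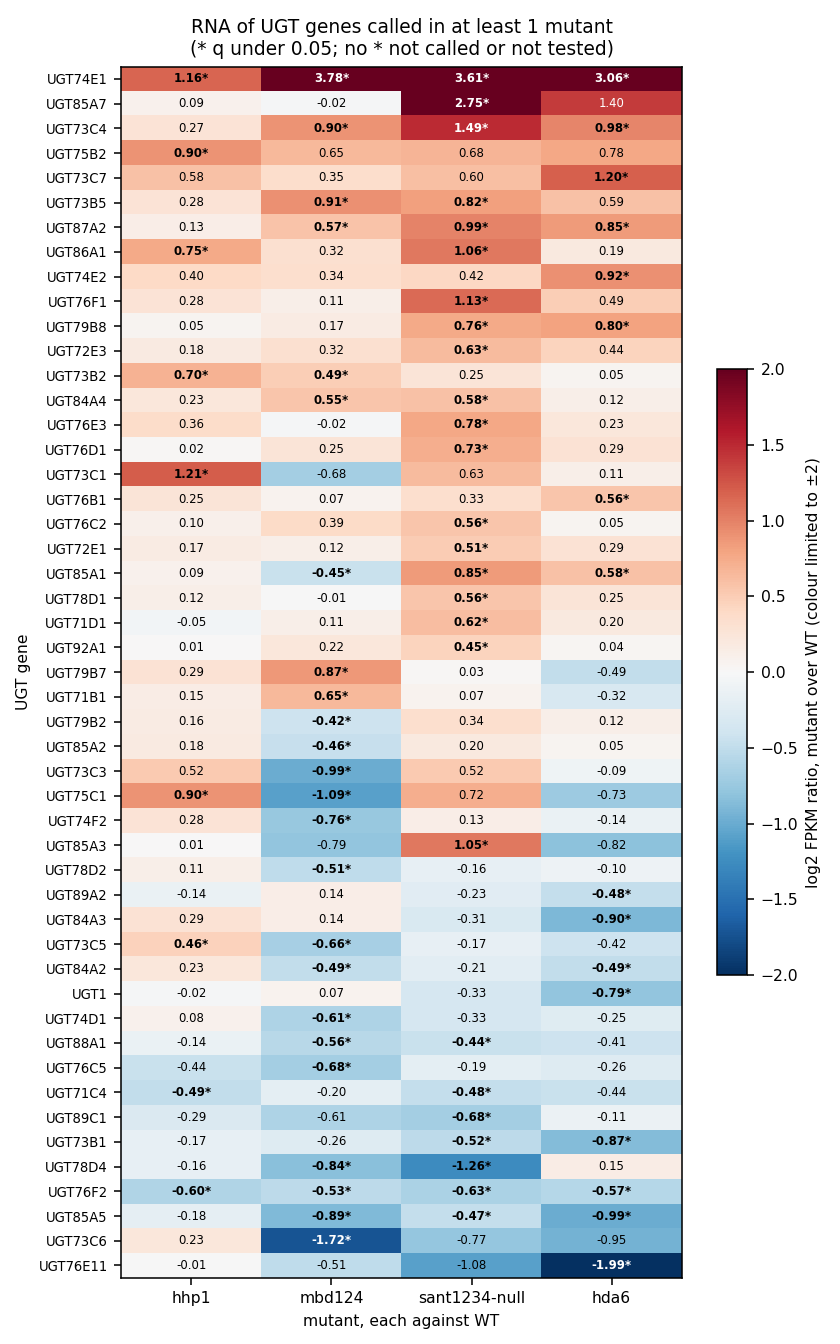
Log2 FPKM ratio of each mutant over WT (columns) for the 49 UGT genes called in at least 1 mutant (rows, ordered by their mean change), with * for q under 0.05 and the colour limited to ±2. UGT74E1 at the top is red in all 4 columns, up to 3.78 in mbd124, and UGT76E11 at the bottom reaches -1.99 in hda6.

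UGT74E1 (AT1G05675, chr1:1701116-1702749, minus strand) had the highest log2 change of all UGT genes in mbd124, sant1234-null and hda6. It had 5.62 FPKM in hhp1, 34.6 in mbd124, 30.8 in sant1234-null and 20.6 in hda6, against 2.47 to 2.52 FPKM in WT. The mutants were thus 2.23-fold (hhp1), 13.8-fold (mbd124), 12.2-fold (sant1234-null) and 8.33-fold (hda6) above WT. On the log2 scale the changes were 1.16 ± 0.19, 3.78 ± 0.20, 3.61 ± 0.20 and 3.06 ± 0.20 (SE). Each had the smallest q that its table holds, 0.00192 in hhp1, 0.000861 in mbd124, 0.000723 in sant1234-null and 0.000899 in hda6, in the authors' deposited tables. The hhp1 value was the lowest of the 4 mutants. The neighbouring paralogue UGT74E2 (AT1G05680, chr1:1703002-1704838, minus strand), an enzyme that glucosylates the auxin precursor indole-3-butyric acid and responds to oxidative stress, had 3.38 FPKM in hhp1, 3.24 in mbd124, 3.44 in sant1234-null and 4.73 in hda6, against 2.51 to 2.56 FPKM in WT. UGT74E2 was called in hda6 alone, with a log2 change of 0.92 ± 0.21 (SE, q = 0.000899 in the authors' deposited table). UGT74E1 and UGT74E2 were thus at like levels in WT, and in mbd124, sant1234-null and hda6 only UGT74E1 lay above 20 FPKM. To see whether reads of the pair could be mixed, their signatures were aligned: 120 of 132 bases (90.9%) were identical. In each of the following signatures, read 5′ to 3′ from the RefSeq genome TAIR10.1 on the minus strand, capitals mark the 12 bases at which the pair differs.
UGT74E1 at chr1:1701453-1701584: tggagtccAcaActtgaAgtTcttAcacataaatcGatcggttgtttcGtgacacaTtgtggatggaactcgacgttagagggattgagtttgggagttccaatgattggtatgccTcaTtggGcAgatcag
UGT74E2 at chr1:1703436-1703567: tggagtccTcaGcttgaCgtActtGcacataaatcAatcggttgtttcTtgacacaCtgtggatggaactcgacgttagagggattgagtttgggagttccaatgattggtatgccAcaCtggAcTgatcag
Over the whole genes, 0.694% of the 50-base windows of UGT74E1 and 0.615% of those of UGT74E2 occurred elsewhere in the genome.

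The 250 bases before the start of UGT74E1 are shown because this gene moved in all 4 mutants. Capitals mark the W-box core (TTGAC, bound by WRKY factors), the TGA element (TGACG, bound by TGA bZIP factors) and the G-box (CACGTG), searched on both strands, so that GTCAA and CGTCA are matches too, and TTGACG would count as both of the first pair, which happens in neither window shown. The window (minus strand, TAIR10.1) held 2 W-box cores and 1 TGA element.
UGT74E1 upstream at chr1:1702750-1702999: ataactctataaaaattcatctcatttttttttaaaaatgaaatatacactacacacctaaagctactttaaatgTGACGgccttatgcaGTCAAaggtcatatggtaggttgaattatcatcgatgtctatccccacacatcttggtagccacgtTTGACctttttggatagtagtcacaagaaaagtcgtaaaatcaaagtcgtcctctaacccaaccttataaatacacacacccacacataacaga
Among the windows of the same length before all 105 members, 53.3% held a W-box core, 21.9% a TGA element and 6.67% a G-box, against 44.3%, 18.4% and 5.90% of the windows before 32546 genes. The letters are a description of the window and not of binding.

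UGT76F2 (AT3G55710, chr3:20673564-20676021, plus strand) was the other member called in all 4 mutants, and in each it was lower. It had 3.08 FPKM in hhp1, 3.22 in mbd124, 3.01 in sant1234-null and 3.07 in hda6, against 4.57 to 4.67 FPKM in WT, so the 4 mutants lay close together and all below WT. The log2 changes were -0.60 ± 0.17 in hhp1, -0.53 ± 0.18 in mbd124, -0.63 ± 0.19 in sant1234-null and -0.57 ± 0.19 in hda6 (SE). The q-values in the authors' deposited tables were 0.0218, 0.0396, 0.0111 and 0.0342 for the same mutants, so none of these calls holds at a threshold of 0.01. Its upstream neighbour UGT76F1 (AT3G55700, chr3:20671115-20673430, plus strand), which glucosylates the auxin precursor indole-3-pyruvic acid, had 1.50 FPKM in hhp1, 1.33 in mbd124, 2.70 in sant1234-null and 1.69 in hda6, against 1.21 to 1.24 FPKM in WT. UGT76F1 was called higher in sant1234-null (log2 change 1.13 ± 0.24 SE, q = 0.000723 in the authors' deposited table) and in no other mutant. In sant1234-null, then, the neighbours moved in opposite directions. Their signatures shared 116 of 132 bases (87.9%), and capitals mark the 16 that differ (plus strand, TAIR10.1).
UGT76F1 at chr3:20672892-20673023: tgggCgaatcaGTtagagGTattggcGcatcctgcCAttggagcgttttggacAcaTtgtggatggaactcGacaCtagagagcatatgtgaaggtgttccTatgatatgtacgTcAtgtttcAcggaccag
UGT76F2 at chr3:20675425-20675556: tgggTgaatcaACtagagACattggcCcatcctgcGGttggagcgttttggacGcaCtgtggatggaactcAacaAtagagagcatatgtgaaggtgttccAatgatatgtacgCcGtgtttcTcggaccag

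**Figure D2:**
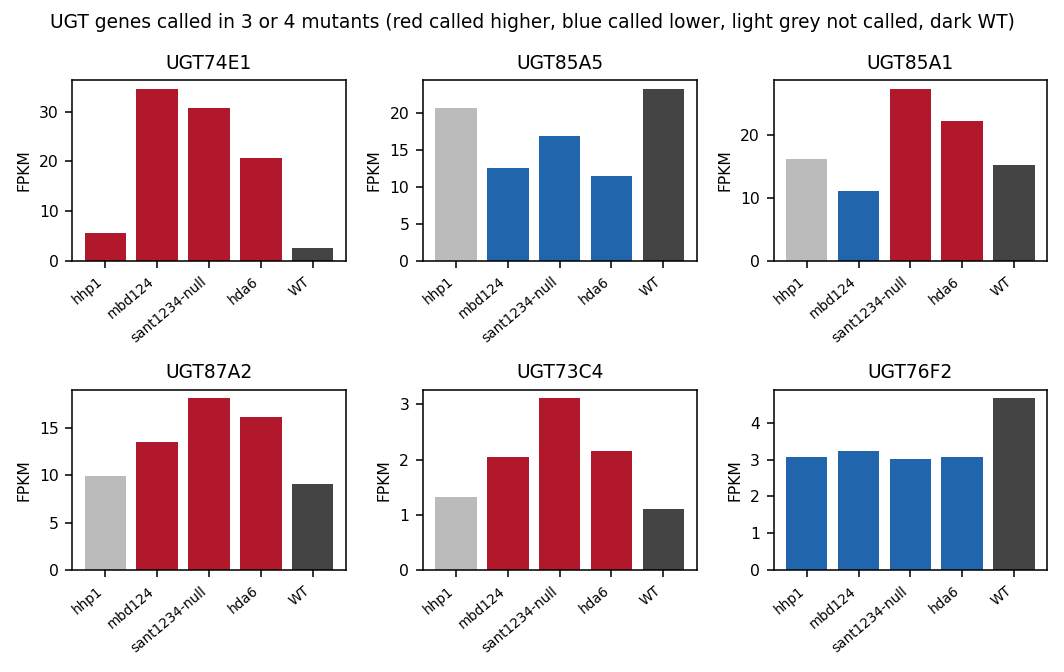
FPKM of the 6 UGT genes called in 3 or 4 mutants, with 1 bar for each mutant (red called higher, blue called lower, light grey not called) and a dark bar for WT as scaled in the hhp1 table; each axis starts at 0 and there is 1 value per genotype. UGT74E1 stands at 34.6 FPKM in mbd124 beside 2.52 in WT, whereas the UGT76F2 bars of the mutants lie between 3.01 and 3.22 beside 4.66 in WT.

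Of the 4 members called in 3 mutants, 2 belong to the UGT85A array of chromosome 1 (5 genes, chr1:7890259-7906969), in which every gene was called in at least 1 mutant. UGT85A5 had 20.6 FPKM in hhp1, 12.5 in mbd124, 16.8 in sant1234-null and 11.4 in hda6, against 22.8 to 23.3 FPKM in WT. Against WT, UGT85A5 was lower in mbd124 (-0.89 ± 0.15), sant1234-null (-0.47 ± 0.15) and hda6 (-0.99 ± 0.16; log2 changes with SE), with q in the authors' deposited tables of 0.000861, 0.0163 and 0.000899. UGT85A1, which adds glucose to the oxygen of the cytokinin trans-zeatin, had 16.3 FPKM in hhp1, 11.1 in mbd124, 27.4 in sant1234-null and 22.3 in hda6, against 14.9 to 15.3 FPKM in WT. UGT85A1 was lower in mbd124 (-0.45 ± 0.15) and higher in sant1234-null (0.85 ± 0.15) and hda6 (0.58 ± 0.16; log2 changes with SE), with q in the authors' deposited tables of 0.0293, 0.000723 and 0.00618. UGT85A5 and UGT85A1, on the same strand with UGT85A3 between them, therefore had opposite signs in sant1234-null and hda6 and the same sign in mbd124. UGT85A2, one of the most abundant members, had 68.6 FPKM in hhp1, 43.8 in mbd124, 69.5 in sant1234-null and 61.4 in hda6, against 59.1 to 60.5 FPKM in WT, and its lower level in mbd124 was called (log2 change -0.46 ± 0.15 SE, q = 0.0230 in the authors' deposited table). UGT85A3 had 1.51 FPKM in hhp1, 0.860 in mbd124, 3.09 in sant1234-null and 0.830 in hda6, against 1.47 to 1.50 FPKM in WT, and it was called in sant1234-null alone (log2 change 1.05 ± 0.23 SE, q = 0.00196 in the authors' deposited table). In mbd124 and hda6 the UGT85A3 values lay below WT without passing the test.

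UGT85A7 (AT1G22340, chr1:7890259-7892118, minus strand), at the edge of the array, was nearly silent in WT. It had 0.202 FPKM in hhp1, 0.188 in mbd124, 1.29 in sant1234-null and 0.494 in hda6, against 0.187 to 0.191 FPKM in WT, so sant1234-null was the highest and hda6 the next. The gene was tested in the sant1234-null table only, where it was 6.74-fold above WT (log2 change 2.75 ± 0.47 SE, q = 0.00136 in the authors' deposited table). Its H3ac moved as well, as given with the peaks. The 250 bases before its start (minus strand, TAIR10.1) are shown with the same motifs in capitals, and held 1 W-box core, 1 TGA element and 1 G-box.
UGT85A7 upstream at chr1:7892119-7892368: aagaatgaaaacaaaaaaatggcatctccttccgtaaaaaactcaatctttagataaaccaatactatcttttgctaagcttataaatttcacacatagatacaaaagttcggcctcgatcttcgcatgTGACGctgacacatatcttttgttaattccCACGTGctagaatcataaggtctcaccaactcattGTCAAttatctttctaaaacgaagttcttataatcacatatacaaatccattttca
The windows before 6 more members were searched in the same way, and none of them held a TGA element or a G-box. Those of UGT76F1 and UGT76F2 held 2 W-box cores each, although the UGT76F2 window lies partly in the UGT76F1 gene. Those of UGT74E2 and UGT73C4 held 1 each. Those of UGT86A1 and UGT87A2 held none of the 3 motifs, so the members called higher in several mutants did not share these letters.

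UGT87A2, an enzyme linked to flowering time through the floral repressor FLC, had 9.95 FPKM in hhp1, 13.5 in mbd124, 18.1 in sant1234-null and 16.1 in hda6, against 8.93 to 9.13 FPKM in WT. Against WT, UGT87A2 was higher in mbd124 (0.57 ± 0.16), sant1234-null (0.99 ± 0.16) and hda6 (0.85 ± 0.17; log2 changes with SE), with q in the authors' deposited tables of 0.00566, 0.000723 and 0.000899. UGT86A1 had 16.1 FPKM in hhp1, 12.0 in mbd124, 20.1 in sant1234-null and 10.7 in hda6, against 9.41 to 9.62 FPKM in WT. UGT86A1 was higher in hhp1 (0.75 ± 0.15) and sant1234-null (1.06 ± 0.16; log2 changes with SE), with q in the authors' deposited tables of 0.00192 and 0.000723. UGT87A2 was thus near WT in hhp1, where UGT86A1 had risen, and both had their highest level in sant1234-null.

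The UGT73C array of chromosome 2 holds 6 members (chr2:15410376-15425129), among them the brassinosteroid glucosyltransferases UGT73C5, which also detoxifies the fungal toxin deoxynivalenol, and UGT73C6. Each mutant had at least 1 call in this array. UGT73C5 had 13.9 FPKM in hhp1, 6.38 in mbd124, 9.01 in sant1234-null and 7.44 in hda6, against 9.93 to 10.2 FPKM in WT. Against WT, UGT73C5 was higher in hhp1 (0.46 ± 0.14) and lower in mbd124 (-0.66 ± 0.16; log2 changes with SE), with q in the authors' deposited tables of 0.0359 and 0.00163. UGT73C6 had 7.28 FPKM in hhp1, 1.87 in mbd124, 3.64 in sant1234-null and 3.14 in hda6, against 6.07 to 6.20 FPKM in WT, and its lower level in mbd124 was called (-1.72 ± 0.34 SE, q = 0.000861 in the authors' deposited table). A listed antisense gene overlaps 1694 bases of UGT73C6. Both brassinosteroid enzymes thus fell in mbd124, and their values in sant1234-null and hda6 also lay below WT without passing the test. UGT73C1, which conjugates the explosive TNT, had 1.77 FPKM in hhp1, 0.475 in mbd124, 1.19 in sant1234-null and 0.811 in hda6, against 0.751 to 0.767 FPKM in WT. UGT73C1 was higher in hhp1 (1.21 ± 0.28 SE, q = 0.00602 in the authors' deposited table). UGT73C3 had 2.11 FPKM in hhp1, 0.737 in mbd124, 2.11 in sant1234-null and 1.35 in hda6, against 1.44 to 1.47 FPKM in WT, and was lower in mbd124 (-0.99 ± 0.29 SE, q = 0.0190 in the authors' deposited table). UGT73C4 went the other way from its neighbours in mbd124, with 1.33 FPKM in hhp1, 2.05 in mbd124, 3.11 in sant1234-null and 2.15 in hda6, against 1.08 to 1.11 FPKM in WT. The rises of UGT73C4 were 0.90 ± 0.26 in mbd124, 1.49 ± 0.24 in sant1234-null and 0.98 ± 0.26 in hda6 (log2 changes with SE), with q in the authors' deposited tables of 0.0118, 0.000723 and 0.00372. The share of windows found elsewhere was 10.1% for UGT73C4, 8.74% for UGT73C3, 7.78% for UGT73C6 and 6.76% for UGT73C5. The share of reads counted for each of these neighbours is therefore uncertain. UGT73C2 was listed at 0 in all genotypes. UGT73C7, on chromosome 3, which acts on hydroxycinnamic acids, had 0.643 FPKM in hhp1, 0.549 in mbd124, 0.658 in sant1234-null and 0.971 in hda6, against 0.423 to 0.433 FPKM in WT and was called in hda6, 2.29-fold above WT (q = 0.0240 in the authors' deposited table).

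The UGT73B genes are known for induction by pathogens and oxidative stress, UGT73B3 and UGT73B5 above all. UGT73B5 had 9.58 FPKM in hhp1, 14.7 in mbd124, 14.0 in sant1234-null and 11.6 in hda6, against 7.72 to 7.90 FPKM in WT, and was called higher in mbd124 (0.91 ± 0.20) and sant1234-null (0.82 ± 0.22; log2 changes with SE). The q-values in the authors' deposited tables were 0.000861 and 0.00196. The annotated UGT73B5 overlaps its neighbour UGT73B4 by 1866 bases on the same strand, so reads could be counted for either, and UGT73B4 (7.32 to 7.48 FPKM in WT) was not called. UGT73B2 had 21.8 FPKM in hhp1, 18.8 in mbd124, 16.0 in sant1234-null and 13.6 in hda6, against 13.1 to 13.4 FPKM in WT. Against WT, UGT73B2 was higher in hhp1 (0.70 ± 0.14) and mbd124 (0.49 ± 0.15; log2 changes with SE), with q in the authors' deposited tables of 0.00192 and 0.0086. UGT73B1, in the same array of chromosome 4, was lower in sant1234-null (17.3 FPKM in sant1234-null and 24.8 in WT, log2 change -0.52 ± 0.15 SE) and in hda6 (13.3 FPKM in hda6 and 24.3 in WT, -0.87 ± 0.16 SE). UGT75B2 was higher in hhp1 (1.49 FPKM in hhp1 and 0.796 in WT, log2 change 0.90 ± 0.28 SE). Of the 10 members on the list of pathogen, oxidative stress and xenobiotic responses, 9 were tested. On that list 3 were called higher and 0 lower in hhp1, 3 and 1 in mbd124, 3 and 0 in sant1234-null, and 2 and 0 in hda6, with median log2 changes of 0.37, 0.54, 0.68 and 0.63. Over all genes 2.88% were higher and 3.26% lower in hhp1, 4.85% and 6.42% in mbd124, 9.33% and 5.93% in sant1234-null, and 7.25% and 4.79% in hda6. UGT74E1 is among the members called higher in each, and the list was drawn up with results of these data known.

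Among the enzymes of salicylate and related immune signals, 4 members were tested, and 1 was called in each of mbd124 (lower), sant1234-null (higher) and hda6 (higher), and 0 in hhp1. The shares of all genes were 6.42% lower in mbd124, 9.33% higher in sant1234-null, 7.25% higher in hda6 and 6.14% called in hhp1. UGT74F2, which makes the glucose ester of salicylate, had 68.2 FPKM in hhp1, 33.2 in mbd124, 61.5 in sant1234-null and 50.0 in hda6, against 55.1 to 56.3 FPKM in WT. UGT74F2 was lower in mbd124 (-0.76 ± 0.15 SE, q = 0.000861 in the authors' deposited table). Its array neighbour UGT74F1, which makes the salicylate glucoside, was at 2.01 to 2.98 FPKM in the mutants and 2.72 to 2.78 in WT, with no call. UGT76B1, which glucosylates isoleucic acid, salicylate and the systemic immune signal N-hydroxypipecolate, had 18.8 FPKM in hhp1, 16.5 in mbd124, 19.9 in sant1234-null and 22.8 in hda6, against 15.5 to 15.8 FPKM in WT. Against WT, UGT76B1 was higher in hda6 (0.56 ± 0.16 SE, q = 0.00618 in the authors' deposited table). UGT76D1, which glucosylates dihydroxybenzoates, was higher in sant1234-null (2.78 FPKM in sant1234-null and 1.68 in WT, log2 change 0.73 ± 0.24 SE).

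The genes that make and turn over these signals were read beside them. Of 9 tested genes of salicylate and N-hydroxypipecolate metabolism in hda6, 7 were called higher and 0 lower (median log2 change 1.37), where 7.25% of all genes were higher and 4.79% lower. The counts were 3 higher and 0 lower of 9 in hhp1 (2.88% and 3.26% of all genes), 0 and 1 of 8 in mbd124 (4.85% and 6.42%), and 1 and 0 of 8 in sant1234-null (9.33% and 5.93%). In the authors' deposited table DLO1, a salicylate hydroxylase, stood at 13.3 FPKM in hda6 and 1.35 in WT (log2 change 3.30, q 0.000899). In the same deposited table of the authors, ALD1, which starts pipecolate synthesis, stood at 1.63 FPKM in hda6 and 0.221 in WT (log2 change 2.88, q 0.00309). The monooxygenase FMO1, which makes N-hydroxypipecolate, stood in the authors' deposited table at 2.83 FPKM in hda6 and 1.03 in WT (log2 change 1.46, q 0.000899). ICS1, the main enzyme of salicylate synthesis, stood in the authors' deposited table at 21.1 FPKM in hda6 and 7.75 in WT (log2 change 1.44, q 0.000899). The hydroxylase DMR6 stood in the authors' deposited table at 57.0 FPKM in hda6 and 22.1 in WT (log2 change 1.37, q 0.000899), and the salicylate synthesis gene PBS3 at 6.70 FPKM in hda6 and 2.63 in WT (log2 change 1.35, q 0.000899). These 6 genes rose by more than 1.3 on the log2 scale in hda6, whereas UGT76B1 was 1.47-fold above WT there and UGT74F2 was not called. In hhp1, the authors' deposited table gave DLO1 at 3.05 FPKM in hhp1 and 1.38 in WT (log2 change 1.15, q 0.00722). In mbd124, where UGT74F2 was lower, the authors' deposited table gave PBS3 at 1.27 FPKM in mbd124 and 2.68 in WT (log2 change -1.08, q 0.000861).

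Of 4 tested glycosyltransferases of flavonoids and anthocyanins, the sunscreens and red pigments of seedlings, 1 was called higher in hhp1, 2 lower in mbd124, 1 higher and 1 lower in sant1234-null and 0 in hda6. The shares of all genes were 2.88% higher in hhp1, 6.42% lower in mbd124, and 9.33% higher and 5.93% lower in sant1234-null. In hda6 12.0% of all genes were called. UGT75C1, the anthocyanin 5-O-glucosyltransferase, had 7.83 FPKM in hhp1, 1.96 in mbd124, 6.93 in sant1234-null and 2.47 in hda6, against 4.11 to 4.20 FPKM in WT. UGT75C1 was higher in hhp1 (0.90 ± 0.28) and lower in mbd124 (-1.09 ± 0.35; log2 changes with SE), with q in the authors' deposited tables of 0.0259 and 0.0334. In sant1234-null UGT75C1 lay above WT and in hda6 below it, and neither passed the test. UGT78D2, which adds glucose at position 3 of flavonols and anthocyanidins, had 16.7 FPKM in hhp1, 10.8 in mbd124, 13.8 in sant1234-null and 14.2 in hda6, against 15.1 to 15.5 FPKM in WT, and was lower in mbd124 (-0.51 ± 0.15 SE, q = 0.0128 in the authors' deposited table). UGT78D1, which adds rhamnose at the same position of flavonols, had 20.2 FPKM in hhp1, 18.4 in mbd124, 27.6 in sant1234-null and 21.8 in hda6, against 18.3 to 18.7 FPKM in WT, and was higher in sant1234-null (0.56 ± 0.15 SE, q = 0.00407 in the authors' deposited table). UGT89C1, the flavonol 7-O-rhamnosyltransferase, had 12.1 FPKM in hhp1, 9.69 in mbd124, 9.29 in sant1234-null and 13.4 in hda6, against 14.5 to 14.9 FPKM in WT, and was lower in sant1234-null (-0.68 ± 0.25 SE, q = 0.0468 in the authors' deposited table). A listed antisense gene overlaps 1580 bases of UGT89C1. UGT78D4, in the UGT78D array of chromosome 5, had 1.64 FPKM in hhp1, 1.02 in mbd124, 0.769 in sant1234-null and 2.00 in hda6, against 1.80 to 1.84 FPKM in WT. Against WT, UGT78D4 was lower in mbd124 (-0.84 ± 0.27) and sant1234-null (-1.26 ± 0.29; log2 changes with SE), with q in the authors' deposited tables of 0.0379 and 0.00252. UGT78D3, the flavonol arabinosyltransferase of the same array, was below 0.12 FPKM in each genotype and was not tested.

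The anthocyanin xylosyltransferase gene listed as A3G2XYLT, which RefSeq also names UGT79B1, was outside the rule because of its symbol. In the authors' deposited tables it stood at 5.85 FPKM in hhp1, 0.779 in mbd124, 2.86 in sant1234-null and 0.985 in hda6, against 2.64 to 2.70 FPKM in WT. It was called in hhp1 (log2 change 1.12), mbd124 (-1.79) and hda6 (-1.42). The rest of the route was read from a list of 19 genes, 18 of them tested. In hhp1 6 were called higher and 0 lower (median log2 change 0.34), in mbd124 0 and 10 (-0.71), in sant1234-null 1 and 4 (-0.10), and in hda6 0 and 6 (-0.49). The shares of all genes called higher and lower were 2.88% and 3.26% in hhp1, 4.85% and 6.42% in mbd124, 9.33% and 5.93% in sant1234-null, and 7.25% and 4.79% in hda6. Dihydroflavonol reductase DFR stood at 57.2 FPKM in hhp1 and 24.2 in WT (log2 change 1.24, q 0.00192) in the authors' deposited table. In mbd124 the authors' deposited table gave DFR at 7.04 FPKM in mbd124 and 24.1 in WT (log2 change -1.78, q 0.000861), and in hda6 at 13.2 FPKM in hda6 and 23.7 in WT (log2 change -0.84, q 0.000899). LDOX, the anthocyanidin synthase, stood at 29.7 FPKM in hhp1 and 13.2 in WT (log2 change 1.17, q 0.00192) in the authors' deposited table. The authors' deposited tables gave LDOX at 4.05 FPKM in mbd124 and 13.2 in WT (log2 change -1.71, q 0.000861), and at 5.95 FPKM in hda6 and 13.0 in WT (log2 change -1.13, q 0.000899). The pigment regulator MYB75 stood at 1.25 FPKM in mbd124 and 4.17 in WT (log2 change -1.74, q 0.000861) in the authors' deposited table, and at 0.934 FPKM in hda6 and 4.10 in WT (log2 change -2.13, q 0.000899) in that of hda6. Its relative MYB90 stood at 1.03 FPKM in hda6 and 3.03 in WT (log2 change -1.55, q 0.00372) in the authors' deposited table. The bHLH regulator TT8 stood at 1.36 FPKM in hhp1 and 0.654 in WT (log2 change 1.05, q 0.0157) in the authors' deposited table, and the flavonol regulator MYB111 at 0.654 FPKM in sant1234-null and 1.37 in WT (log2 change -1.06, q 0.0220). The sign of the last steps, UGT75C1 and A3G2XYLT, was thus that of DFR and LDOX in hhp1 and in mbd124. In the authors' deposited table of mbd124 the flavonol synthase FLS1 at 16.3 FPKM in mbd124 and 34.2 in WT (log2 change -1.07, q 0.000861) was also lower. The anthocyanin acyltransferases 5MAT at 0.516 FPKM in mbd124 and 1.21 in WT (log2 change -1.23, q 0.0158) and SAT at 3.41 FPKM in mbd124 and 8.94 in WT (log2 change -1.39, q 0.000861) were lower in the same authors' deposited table, and 5MAT at 0.495 FPKM in hda6 and 1.19 in WT (log2 change -1.26, q 0.00841) in that of hda6.

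**Figure D3:**
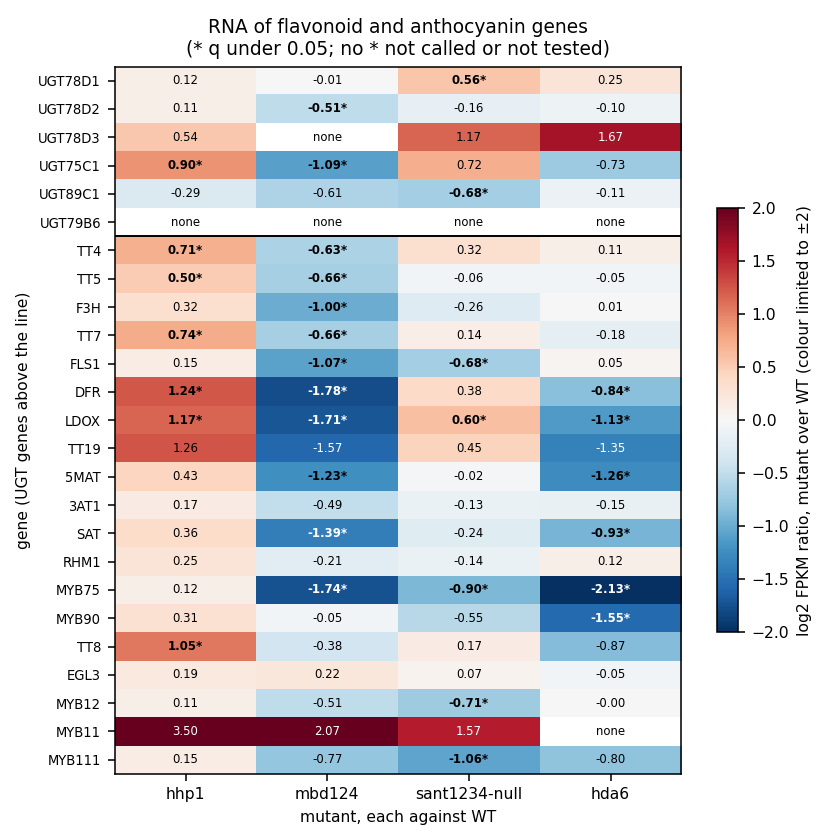
Log2 FPKM ratio of each mutant over WT (columns) for the flavonoid and anthocyanin UGT genes (rows above the line) and other genes of the route (below it), with * for q under 0.05, none where a genotype was listed at 0, and the colour limited to ±2. DFR and LDOX, at 1.24 and 1.17 in hhp1 and -1.78 and -1.71 in mbd124, have the signs of UGT75C1, at 0.90 and -1.09.

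All 8 enzymes on the list of sinapate and monolignol glucosyltransferases were tested. None was called in hhp1, 1 was higher and 1 lower in mbd124, 3 were higher in sant1234-null and 2 lower in hda6. Of all genes, 6.14% were called in hhp1, 4.85% were higher and 6.42% lower in mbd124. In sant1234-null 9.33% of all genes were higher, and in hda6 4.79% were lower. UGT84A2, the main sinapate glucosyltransferase, was lower in mbd124 (12.1 FPKM in mbd124 and 17.0 in WT, log2 change -0.49 ± 0.15 SE) and hda6 (11.9 FPKM in hda6 and 16.7 in WT, -0.49 ± 0.16 SE). Its relative UGT84A3 was lower in hda6 (5.79 FPKM in hda6 and 10.8 in WT, -0.90 ± 0.17 SE). UGT84A4, the array neighbour of UGT84A3, was higher in mbd124 (6.92 FPKM in mbd124 and 4.74 in WT, 0.55 ± 0.17 SE) and sant1234-null (7.15 FPKM in sant1234-null and 4.76 in WT, 0.58 ± 0.18 SE). The monolignol enzyme UGT72E3 had 4.66 FPKM in hhp1, 5.12 in mbd124, 6.36 in sant1234-null and 5.45 in hda6, against 4.03 to 4.12 FPKM in WT. UGT72E3 was higher in sant1234-null (0.63 ± 0.18 SE, q = 0.00456 in the authors' deposited table), as UGT72E1 was. In the upstream phenylpropanoid route of 17 tested genes, 0 were called higher in any mutant, and 0, 1, 2 and 1 were lower in hhp1, mbd124, sant1234-null and hda6, where 3.26%, 6.42%, 5.93% and 4.79% of all genes were lower. Of 9 tested genes that supply UDP-sugars, only the sucrose synthase gene SUS1 was called, higher in mbd124 and sant1234-null, where 4.85% and 9.33% of all genes were higher.

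Of 3 tested cytokinin glucosyltransferases, UGT85A1 is given with its array, and UGT76C2, which adds glucose to the ring nitrogen of cytokinins, had 5.68 FPKM in hhp1, 6.93 in mbd124, 7.84 in sant1234-null and 5.38 in hda6, against 5.20 to 5.32 FPKM in WT. Against WT, UGT76C2 was higher in sant1234-null (0.56 ± 0.17 SE, q = 0.0115 in the authors' deposited table). The related UGT76C1 was not called. Of 4 tested enzymes of auxin and indole-3-butyric acid, UGT74D1, an auxin glucosyltransferase, was lower in mbd124 (15.6 FPKM in mbd124 and 23.8 in WT, -0.61 ± 0.17 SE), and a listed antisense gene overlaps 3089 of its bases. The gene listed as UGT1, which RefSeq names UGT75B1, was lower in hda6 (13.1 FPKM in hda6 and 22.7 in WT, -0.79 ± 0.16 SE). The values of UGT1 are uncertain because a listed antisense gene covers 2136 of its bases. Neither of the 2 tested abscisate enzymes, UGT71B7 and UGT71C5, was called in any mutant, and UGT71B6 was not analysed here. No call fell on the glucosinolate enzymes UGT74B1 and UGT74C1 or on the sterol enzymes UGT80A2 and UGT80B1.

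The other members of the UGT76 subfamily that were called included UGT76E11, which had 1.76 FPKM in hhp1, 1.24 in mbd124, 0.843 in sant1234-null and 0.437 in hda6, against 1.74 to 1.78 FPKM in WT. UGT76E11 was lower in hda6 (-1.99 ± 0.57 SE, q = 0.0413 in the authors' deposited table), and a listed antisense gene overlaps 1809 of its bases. In sant1234-null UGT76E11 was also below WT and did not pass the test. UGT76E3, in the same array, had 12.6 FPKM in hhp1, 9.72 in mbd124, 17.0 in sant1234-null and 11.4 in hda6, against 9.66 to 9.87 FPKM in WT. Against WT, UGT76E3 was higher in sant1234-null (0.78 ± 0.16 SE, q = 0.000723 in the authors' deposited table). UGT76C5, a nicotinate glucosyltransferase, was lower in mbd124 (7.92 FPKM in mbd124 and 12.7 in WT, -0.68 ± 0.16 SE).

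The remaining called members changed by less than 2-fold. UGT79B7 had 5.61 FPKM in hhp1, 8.41 in mbd124, 4.71 in sant1234-null and 3.21 in hda6, against 4.51 to 4.61 FPKM in WT. UGT79B7 was higher in mbd124 (log2 change 0.87 ± 0.18 SE, q = 0.000861 in the authors' deposited table). UGT79B8 was higher in sant1234-null (4.41 FPKM in sant1234-null and 2.61 in WT, 0.76 ± 0.23 SE) and hda6 (4.44 FPKM in hda6 and 2.55 in WT, 0.80 ± 0.24 SE). UGT79B2 had 25.3 FPKM in hhp1, 16.9 in mbd124, 28.8 in sant1234-null and 24.1 in hda6, against 22.3 to 22.8 FPKM in WT. Against WT, UGT79B2 was lower in mbd124 (-0.42 ± 0.15 SE, q = 0.0438 in the authors' deposited table), and the sequence it shares with UGT79B3 makes its count uncertain. UGT71B1 was higher in mbd124 (18.4 FPKM in mbd124 and 11.7 in WT, 0.65 ± 0.21 SE), and UGT71D1 in sant1234-null (19.2 FPKM in sant1234-null and 12.5 in WT, 0.62 ± 0.16 SE). UGT71C4, the neighbour of UGT71C5, had 18.1 FPKM in hhp1, 22.1 in mbd124, 18.3 in sant1234-null and 18.4 in hda6, against 24.9 to 25.4 FPKM in WT. UGT71C4 was lower in hhp1 (-0.49 ± 0.16) and sant1234-null (-0.48 ± 0.17; log2 changes with SE), with q in the authors' deposited tables of 0.0385 and 0.0379. UGT92A1 was higher in sant1234-null (14.2 FPKM in sant1234-null and 10.4 in WT, 0.45 ± 0.16 SE), and UGT89A2, which glucosylates dihydroxybenzoates, had 9.36 FPKM in hhp1, 11.4 in mbd124, 8.85 in sant1234-null and 7.24 in hda6, against 10.1 to 10.3 FPKM in WT. Its lower level in hda6 was called (-0.48 ± 0.17 SE, q = 0.0388 in the authors' deposited table). These genes had no call in the mutants not named for them.

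H3ac over whole genes was read from counts of 404116 reads on members in sant1234-null, 319271 in hda6 and 364998 in WT, of 78316244, 68093284 and 69959151 reads on all genes of these genotypes. The RPKM values are the authors', 1 per genotype, with no input subtracted. In WT the members' median was 18.0 RPKM (6.58 to 99.7), against 10.7 over all genes. Members below 1 FPKM in WT had a median of 12.8 RPKM, those between 1 and 10 FPKM 17.8, and those at 10 or more 27.7. Across the 105 members, Spearman's rho between WT FPKM and WT H3ac was 0.59, and it was 0.40 across 32823 genes, given as a description with no test. The highest WT values were those of UGT71C4 (70.0 RPKM in sant1234-null and 66.6 in hda6, against 99.7 in WT), UGT89C1 (69.5 RPKM in sant1234-null and 57.8 in hda6, against 82.5 in WT) and UGT71C5 (59.0 RPKM in sant1234-null and 55.7 in hda6, against 81.6 in WT). All 3 were lower in both mutants than in WT, but they were picked for their high WT values. All genes at or above the members' median WT level also had negative median log2 ratios, -0.27 in sant1234-null and -0.33 in hda6.

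Between genotypes, the gene values of H3ac had no test. The median log2 ratio of RPKM + 1 was 0.03 in sant1234-null and -0.08 in hda6, and 0.08 over all genes in both. Members at or above the median WT level had a median of -0.18 in sant1234-null and -0.31 in hda6, and all genes above the same level -0.27 and -0.33. Members below it had 0.28 in sant1234-null and 0.12 in hda6, and all genes below it 0.18 and 0.19. The split used the WT value that also enters the ratio, so the 2 are tied by construction. UGT85A7 had the highest ratio in sant1234-null over WT, with 31.4 RPKM in sant1234-null and 19.0 in hda6, against 14.5 in WT. UGT78D1 had 25.3 RPKM in sant1234-null and 19.2 in hda6, against 13.4 in WT, the highest ratio in hda6 over WT. UGT72E3 had 26.7 RPKM in sant1234-null and 16.1 in hda6, against 12.6 in WT, and UGT75C1 had 32.6 RPKM in sant1234-null and 25.8 in hda6, against 19.8 in WT. All 4 had more H3ac in sant1234-null than in hda6. They are named here for large ratios over WT, so this order was partly set by the choice and was not tested. UGT74E1, by contrast, had 19.3 RPKM in sant1234-null and 15.1 in hda6, against 17.3 in WT.

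The authors' peak tables give for each 401-base peak a log2 concentration of reads per genotype, a shrunken log2 fold and an FDR (false discovery rate), in the layout of DiffBind, and a peak was called at an FDR under 0.05. In sant1234-null, 121 overlaps of a peak with a member by at least 1 base were found at 98 genes, and 39 were called, or 32.2%, against 28.1% of all peaks. Of them 27 were higher (22.3%, against 15.2% of all peaks) and 12 lower (9.92%, against 12.9%). In hda6, 116 overlaps at 98 genes held 25 calls, or 21.6%, against 27.8% of all peaks. Of these, 4 were higher (3.45%, against 5.29%) and 21 lower (18.1%, against 22.5%). Called-higher peaks had a median WT concentration of 6.11 in sant1234-null and 6.74 in hda6, and called-lower peaks 9.52 and 8.39, where the WT value again enters both measures. At a WT concentration of 8 or more, 1 of 40 overlaps was higher and 11 lower in sant1234-null, and 0 of 36 and 15 in hda6. Below 8, 26 of 81 were higher and 1 lower in sant1234-null, and 4 of 80 and 6 in hda6. Over all peaks at 8 or more, 0.797% were higher and 48.1% lower in sant1234-null, and 0.0807% and 64.4% in hda6. Below 8 the shares over all peaks were 19.2% higher and 3.20% lower in sant1234-null, and 6.58% and 12.2% in hda6.

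**Figure D4:**
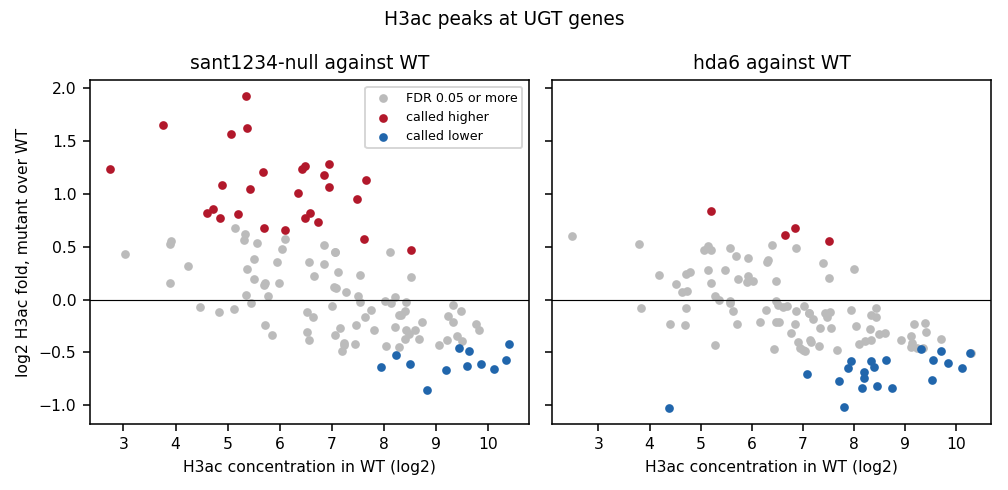
Log2 H3ac fold of mutant over WT against the log2 concentration in WT for each peak that overlaps a UGT gene, with sant1234-null on the left and hda6 on the right (red called higher, blue called lower, grey an FDR of 0.05 or more). The 27 red points of sant1234-null have a median WT concentration of 6.11 and its 12 blue points one of 9.52.

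By the authors' shrunken fold, the largest gain at a member in sant1234-null lay in UGT76F1, 362 bases after the gene start, with a concentration of 7.44 in sant1234-null and 5.35 in WT (log2 fold 1.93, FDR 4.79e-07) in the authors' deposited table. In hda6 the authors' deposited table gave the peak of UGT76F1 a concentration of 6.47 in hda6 and 5.21 in WT (log2 fold 0.84, FDR 0.0242). UGT76F1 RNA was 2.19-fold of WT in sant1234-null and was not called in hda6. The central 300 coding bases of the sant1234-null peak of UGT76F1 (plus strand, TAIR10.1), none of which matches any of the motifs above, are shown as the site of the largest shrunken fold. The plain difference of concentrations was larger at called peaks of UGT74C1, UGT85A7 and UGT76C3, which had lower concentrations in WT.
UGT76F1 peak centre at chr3:20671328-20671627: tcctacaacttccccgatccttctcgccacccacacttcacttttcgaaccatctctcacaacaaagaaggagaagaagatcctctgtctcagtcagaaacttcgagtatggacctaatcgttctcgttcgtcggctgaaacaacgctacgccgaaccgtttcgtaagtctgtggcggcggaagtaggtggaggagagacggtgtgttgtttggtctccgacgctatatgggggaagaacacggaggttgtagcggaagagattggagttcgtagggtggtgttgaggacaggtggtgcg
UGT85A7 had 2 called peaks in sant1234-null, at 7.84 in sant1234-null and 6.43 in WT (log2 fold 1.24, FDR 2.67e-06) and at 7.89 in sant1234-null and 5.07 in WT (log2 fold 1.57, FDR 0.0137), in the authors' deposited table. The first lay 228 bases and the second 1237 bases after the gene start, so the gain reached from the start far into the gene. The central 300 coding bases of the first (minus strand, TAIR10.1) held 2 TGA elements, in capitals.
UGT85A7 peak centre at chr1:7891741-7892040: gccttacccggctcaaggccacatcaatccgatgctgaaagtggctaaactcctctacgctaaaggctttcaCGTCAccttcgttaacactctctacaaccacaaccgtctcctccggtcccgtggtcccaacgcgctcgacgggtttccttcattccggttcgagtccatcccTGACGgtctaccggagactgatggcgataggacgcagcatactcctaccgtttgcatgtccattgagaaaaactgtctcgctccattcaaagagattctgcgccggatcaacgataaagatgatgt

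RNA and H3ac calls were set side by side for the 98 members with a peak, taking the peak with the smallest FDR of each gene. In sant1234-null, of 19 members with higher RNA, 5 had a higher peak, 2 a lower one and 12 none called. Of 7 with lower RNA, 2 had a higher peak, 1 a lower one and 4 none called. Of 72 with no RNA call, 17 had a higher peak, 8 a lower one and 47 none called. A higher peak was thus about as frequent beside higher RNA (5 of 19) as beside no RNA call (17 of 72). Members with no RNA call, here and in hda6, include some that were not tested. For these joint counts no share over all genes was computed in either mutant. Whether they are high was therefore not tested. The 5 with both higher were UGT76F1, UGT85A7, UGT72E3, UGT78D1 and UGT76E3. In hda6, of 8 members with higher RNA, 0 had a higher peak, 2 a lower one and 6 none called. Of 8 with lower RNA, 0 had a higher peak, 2 a lower one and 6 none called, and of 82 with no RNA call, 4 had a higher peak and 15 a lower one. UGT74E1, with its rises in both mutants, had no called peak in either, and UGT87A2 had higher RNA beside a lower peak in both.

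**Figure D5:**
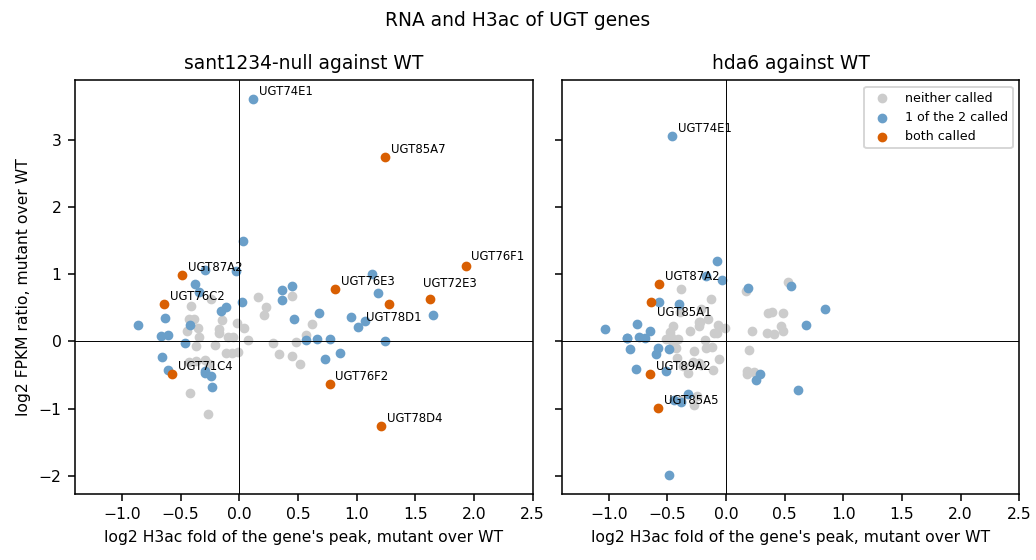
Log2 FPKM ratio against the log2 H3ac fold of the peak with the smallest FDR, both of mutant over WT, for UGT genes with tested RNA and a peak (sant1234-null left, hda6 right; orange both called, blue 1 of the 2 called, grey neither). UGT76F1 and UGT85A7 lie at the upper right in sant1234-null, and UGT74E1 lies there near an H3ac fold of 0 at a log2 RNA change of 3.61.

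The members with both calls in sant1234-null had the following peaks. The UGT72E3 peak stood at 7.23 in sant1234-null and 5.37 in WT (log2 fold 1.63, FDR 1.74e-05) in the authors' deposited table. UGT78D1 had peaks at 8.41 in sant1234-null and 6.94 in WT (log2 fold 1.28, FDR 4.44e-06) and at 6.47 in sant1234-null and 4.9 in WT (log2 fold 1.09, FDR 0.00513) in the authors' deposited table, and in hda6 its peak stood at 7.68 in hda6 and 6.85 in WT (log2 fold 0.68, FDR 0.0194) there. The UGT76E3 peak stood at 7.62 in sant1234-null and 6.59 in WT (log2 fold 0.82, FDR 0.00337) in the authors' deposited table. These gains went with higher RNA, whereas those of UGT78D4 and UGT76F2 went with lower RNA. UGT78D4 had a peak at 7.16 in sant1234-null and 5.68 in WT (log2 fold 1.21, FDR 0.00018), and UGT76F2 at 6.22 in sant1234-null and 4.85 in WT (log2 fold 0.77, FDR 0.045), in the authors' deposited table. UGT87A2 had a peak at 9.07 in sant1234-null and 9.64 in WT (log2 fold -0.49, FDR 0.0292) and, in hda6, at 8.91 in hda6 and 9.55 in WT (log2 fold -0.57, FDR 0.0197) in the authors' deposited tables. UGT71C4, with lower RNA in sant1234-null, had a peak at 9.71 in sant1234-null and 10.35 in WT (log2 fold -0.57, FDR 0.00494) and, in hda6, at 9.69 in hda6 and 10.26 in WT (log2 fold -0.51, FDR 0.0288) in the authors' deposited tables. UGT76C2, with higher RNA in sant1234-null, had lower peaks at 7.12 in sant1234-null and 7.94 in WT (log2 fold -0.64, FDR 0.02) and 7.6 in sant1234-null and 8.24 in WT (log2 fold -0.53, FDR 0.03) in the authors' deposited table. In hda6 the 2 peaks of UGT76C2 stood at 7.18 in hda6 and 8.15 in WT (log2 fold -0.84, FDR 0.00176) and 6.51 in hda6 and 7.8 in WT (log2 fold -1.02, FDR 0.00196) in the authors' deposited table.

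In hda6, UGT85A5, with lower RNA, had a peak at 7.66 in hda6 and 8.33 in WT (log2 fold -0.58, FDR 0.0202), and UGT85A1, with higher RNA, at 7.62 in hda6 and 8.39 in WT (log2 fold -0.64, FDR 0.0244), both lower in the authors' deposited table. These peaks lay 1891 and 2558 bases after the gene starts. The peaks nearer the start were not called there, at 713 bases in UGT85A5 (log2 fold -0.06, FDR 0.886) and 612 in UGT85A1 (-0.35, FDR 0.172). UGT89A2, with lower RNA in hda6, had a peak at 9.39 in hda6 and 10.11 in WT (log2 fold -0.65, FDR 0.00447) and, in sant1234-null, at 9.37 in sant1234-null and 10.11 in WT (log2 fold -0.66, FDR 0.00112) in the authors' deposited tables. The array neighbour UGT85A2 had lower peaks at 7.36 in hda6 and 8.19 in WT (log2 fold -0.69, FDR 0.0137) and 8.78 in hda6 and 9.3 in WT (log2 fold -0.47, FDR 0.0495) in the authors' deposited table of hda6, where its RNA was not called. UGT75C1 gained in both mutants, at 8.17 in sant1234-null and 6.85 in WT (log2 fold 1.18, FDR 5.24e-07) and at 7.38 in hda6 and 6.64 in WT (log2 fold 0.61, FDR 0.0287) in the authors' deposited tables, where its RNA was not called either.

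Other members with called RNA in some mutant had these called peaks. UGT73B2 had lower peaks at 7.83 in sant1234-null and 8.82 in WT (log2 fold -0.86, FDR 0.000112) and 7.77 in hda6 and 8.75 in WT (log2 fold -0.84, FDR 0.00267) in the authors' deposited tables. For sant1234-null, the authors' deposited table gave UGT79B7 a peak at 7.43 in sant1234-null and 6.48 in WT (log2 fold 0.77, FDR 0.00348), UGT74E2 at 6.71 in sant1234-null and 5.69 in WT (log2 fold 0.68, FDR 0.042) and UGT79B2 at 9.06 in sant1234-null and 8.52 in WT (log2 fold 0.47, FDR 0.0257). All 3 were higher, and their RNA was not called in sant1234-null. In the authors' deposited table of hda6, UGT89C1 had a peak at 9.14 in hda6 and 9.69 in WT (log2 fold -0.49, FDR 0.027), UGT73B5 at 7.98 in hda6 and 8.63 in WT (log2 fold -0.57, FDR 0.0282), UGT78D2 at 7.22 in hda6 and 7.93 in WT (log2 fold -0.58, FDR 0.0468) and UGT88A1 at 6.75 in hda6 and 7.71 in WT (log2 fold -0.77, FDR 0.0111). A weak peak of UGT86A1 was listed at 0 in hda6 and 4.38 in WT (FDR 0.0342 in the authors' deposited table). These 5 were lower in hda6, where the RNA of none of them was called.

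A further 21 members, of which UGT76E6, UGT76E1 and UGT91B1 were tested in no mutant, had a called peak and no called RNA in any mutant. For this count no share over all genes was computed, so whether it is high was not tested. Over all peaks, 28.1% were called in sant1234-null and 27.8% in hda6. Of all tested genes, 6.14% (hhp1) to 15.3% (sant1234-null) had an RNA call in a given mutant. Among those gaining H3ac in sant1234-null, UGT76C3 had a peak at 6.06 in sant1234-null and 3.75 in WT (log2 fold 1.65, FDR 0.00295) and UGT91A1 at 7.94 in sant1234-null and 6.49 in WT (log2 fold 1.27, FDR 5.12e-06) in the authors' deposited table. UGT76C3 had 0.993 FPKM in hhp1, 0.829 in mbd124, 0.826 in sant1234-null and 1.13 in hda6, against 0.611 to 0.624 FPKM in WT. UGT91A1 had 0.723 FPKM in hhp1, 0.123 in mbd124, 0.316 in sant1234-null and 0.411 in hda6, against 0.511 to 0.522 FPKM in WT. Both genes were thus weakly expressed in all genotypes. UGT71B5 gained in both mutants, at 8.92 in sant1234-null and 7.66 in WT (log2 fold 1.13, FDR 4.29e-07) and 8.15 in hda6 and 7.51 in WT (log2 fold 0.55, FDR 0.0416) in the authors' deposited tables, and had 0.226 FPKM in hhp1, 0.591 in mbd124, 0.958 in sant1234-null and 0.830 in hda6, against 0.469 to 0.480 FPKM in WT. UGT90A1 had a peak at 8.22 in sant1234-null and 6.94 in WT (log2 fold 1.07, FDR 6.88e-05) in the authors' deposited table, and its RNA was at 3.22 FPKM in hhp1, 3.45 in mbd124, 3.24 in sant1234-null and 3.46 in hda6, against 2.57 to 2.63 FPKM in WT. UGT72D1 had a peak at 7.57 in sant1234-null and 6.36 in WT (log2 fold 1.01, FDR 0.000205) in the authors' deposited table, and its RNA was at 5.56 FPKM in hhp1, 5.03 in mbd124, 5.90 in sant1234-null and 6.68 in hda6, against 4.99 to 5.11 FPKM in WT. None of these 5 genes had an RNA call, but UGT91A1 was tested in hhp1 only, and UGT71B5 was not tested in hhp1.

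The UGT76E and UGT76C arrays held more such genes. UGT76E6 had a peak at 6.86 in sant1234-null and 5.42 in WT (log2 fold 1.05, FDR 0.00309) in the authors' deposited table, and its RNA was at 0.201 FPKM in hhp1, 0.173 in mbd124, 0.446 in sant1234-null and 0.144 in hda6, against 0.398 to 0.407 FPKM in WT. UGT76E4 had a peak at 8.58 in sant1234-null and 7.49 in WT (log2 fold 0.95, FDR 3.78e-05) in the authors' deposited table, and its RNA was at 2.58 FPKM in hhp1, 3.04 in mbd124, 3.69 in sant1234-null and 3.07 in hda6, against 2.80 to 2.86 FPKM in WT. UGT76C4 had a peak at 6.24 in sant1234-null and 4.71 in WT (log2 fold 0.86, FDR 0.032) in the authors' deposited table, and its RNA was at 4.51 FPKM in hhp1, 4.07 in mbd124, 3.80 in sant1234-null and 4.37 in hda6, against 4.18 to 4.27 FPKM in WT. H3ac was thus higher in sant1234-null at 3 neighbours of the UGT76E array, UGT76E3 among them. The RNA of all 3 lay above WT there, but only that of UGT76E3 was called, and UGT76E6 was not tested. UGT76E1, on chromosome 5, which glucosylates hydroxylated jasmonate, had 0.149 FPKM in hhp1, 0.310 in mbd124, 0.332 in sant1234-null and 0.266 in hda6, against 0.296 to 0.303 FPKM in WT, and a peak that was lower in hda6 at 6.18 in hda6 and 7.07 in WT (log2 fold -0.71, FDR 0.0224) in the authors' deposited table. A listed antisense gene overlaps 1896 bases of UGT76E1, so this peak could belong to either gene.

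The remaining gains in sant1234-null lay at UGT74C1, UGT91B1, UGT84A1, UGT79B11 and UGT72E2. UGT74C1 had peaks at 5.6 in sant1234-null and 2.74 in WT (log2 fold 1.24, FDR 0.0327) and 6.07 in sant1234-null and 4.6 in WT (log2 fold 0.82, FDR 0.0391) in the authors' deposited table, and its RNA was at 14.6 FPKM in hhp1, 13.5 in mbd124, 18.4 in sant1234-null and 17.4 in hda6, against 18.0 to 18.4 FPKM in WT. UGT91B1 had a peak at 6.51 in sant1234-null and 5.19 in WT (log2 fold 0.81, FDR 0.0281) in the authors' deposited table, and its RNA was at 0.0787 FPKM in hhp1, 0.0370 in mbd124, 0.0558 in sant1234-null and 0.0712 in hda6, against 0.0595 to 0.0607 FPKM in WT. UGT84A1 had a peak at 7.63 in sant1234-null and 6.73 in WT (log2 fold 0.73, FDR 0.00453) in the authors' deposited table, and its RNA was at 1.03 FPKM in hhp1, 0.372 in mbd124, 0.669 in sant1234-null and 0.932 in hda6, against 0.782 to 0.799 FPKM in WT. Their RNA thus differed widely, from the abundant UGT74C1 to the nearly silent UGT91B1. A listed antisense gene overlaps 1611 bases of UGT91B1, so its peak could belong to either gene. UGT79B11 had a peak at 7.0 in sant1234-null and 6.11 in WT (log2 fold 0.66, FDR 0.0262) in the authors' deposited table, and its RNA was at 1.68 FPKM in hhp1, 2.14 in mbd124, 1.70 in sant1234-null and 1.82 in hda6, against 1.63 to 1.66 FPKM in WT. The peak of UGT72E2, whose RNA is given with the abundant members, stood at 8.27 in sant1234-null and 7.61 in WT (log2 fold 0.57, FDR 0.0113) in the authors' deposited table.

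Losses of H3ac without an RNA call were as follows. UGT71C5, whose RNA is given with the abundant members, had a peak at 9.92 in sant1234-null and 10.4 in WT (log2 fold -0.42, FDR 0.0411) in the authors' deposited table. UGT85A4 had 10.2 FPKM in hhp1, 9.78 in mbd124, 10.4 in sant1234-null and 8.31 in hda6, against 9.51 to 9.72 FPKM in WT, with peaks at 9.16 in sant1234-null and 9.87 in WT (log2 fold -0.61, FDR 0.00643) and 9.16 in hda6 and 9.84 in WT (log2 fold -0.6, FDR 0.0123) in the authors' deposited tables. A listed antisense gene overlaps 1853 bases of UGT85A4, so these peaks could belong to either gene. UGT86A2 had 15.0 FPKM in hhp1, 15.2 in mbd124, 14.8 in sant1234-null and 16.4 in hda6, against 14.8 to 15.2 FPKM in WT, with peaks at 8.91 in sant1234-null and 9.45 in WT (log2 fold -0.46, FDR 0.0419) and 7.08 in hda6 and 7.88 in WT (log2 fold -0.65, FDR 0.0278) in the authors' deposited tables. UGT85A4 and UGT86A2 thus had lower peaks in both mutants, but those of UGT86A2 were different sites. They lay 460 bases after the gene start in sant1234-null and 1955 in hda6. The site near the start was not called in hda6 (log2 fold -0.46, FDR 0.083), nor the far one in sant1234-null (-0.44, FDR 0.117), in the authors' deposited tables. UGT89B1 had 3.45 FPKM in hhp1, 5.45 in mbd124, 6.21 in sant1234-null and 5.70 in hda6, against 4.76 to 4.87 FPKM in WT, with peaks at 8.88 in sant1234-null and 9.6 in WT (log2 fold -0.63, FDR 0.00412) and 8.65 in hda6 and 9.52 in WT (log2 fold -0.76, FDR 0.00274) in the authors' deposited tables. UGT75D1, which glucosylates indole-3-butyric acid, had 5.86 FPKM in hhp1, 6.62 in mbd124, 5.36 in sant1234-null and 6.46 in hda6, against 7.01 to 7.17 FPKM in WT, with peaks at 7.74 in sant1234-null and 8.5 in WT (log2 fold -0.61, FDR 0.0183) and 7.47 in hda6 and 8.44 in WT (log2 fold -0.82, FDR 0.00387) in the authors' deposited tables. UGT71C2 had 4.82 FPKM in hhp1, 5.58 in mbd124, 4.82 in sant1234-null and 5.24 in hda6, against 4.47 to 4.57 FPKM in WT, with a peak at 8.41 in sant1234-null and 9.2 in WT (log2 fold -0.67, FDR 0.00413) in the authors' deposited table. UGT80A2, a sterol glucosyltransferase gene, had 18.0 FPKM in hhp1, 20.7 in mbd124, 20.4 in sant1234-null and 18.8 in hda6, against 18.0 to 18.4 FPKM in WT, with a peak at 7.29 in hda6 and 8.19 in WT (log2 fold -0.74, FDR 0.0111) in the authors' deposited table. In all of these the peak was lower in the mutant named and the RNA had no call.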

How the data were processed

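A total of 33 samples was described: 15 RNA, 9 H3ac ChIP and 9 input libraries, grouped by the genotype and assay of their labels. The submitters' processing notes name TopHat2 2.0.12 with Cufflinks 2.2.1 and Cuffdiff, Bowtie2 2.4.1 beside MACS2 2.1.1.20160309, bedtools, DiffBind, CASAVA and the build TAIR10, and do not say which tool did what. The handling of strand and of reads shared by copies is not given in the sources used here. The authors' RNA tables hold FPKM values per genotype, and the deposited p-value and q-value of each gene, with a test score used here only for standard errors. The q-value was checked to be the Benjamini-Hochberg adjustment over genes marked as tested. The authors' ChIP gene tables hold a raw read count and an RPKM per genotype, which was checked to be the count over gene length and mapped reads for 97.1% to 99.9% of genes within 1 percent. Per the file headers, the deposited peak tables hold for each peak its concentrations and fold, both log2, and an FDR. Of the columns with values per sample 0 were left unused, and tables of transposable elements and input values were not analysed here.

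Log2 changes came from FPKM with no pseudocount, and from RPKM + 1 for H3ac. SE is the size of the log2 change divided by the deposited statistic and by 1.74, the median factor by which the normal deviate of the p-value exceeds it. The adjustment of p-values and the recovery of SE were tested on simulated data. Peaks were assigned to genes by an overlap of at least 1 base. Starts in the tables count from 0 and were raised by 1. Coordinates were the same in TAIR10.1 for all 105 members, and sequences were read from that RefSeq build (Python 3.11.15, pandas 2.3.3, scipy 1.17.1). Depth is known for the ChIP tables only, where it limits the counting error of a gene. RNA depth is unknown.

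Every member called in an RNA table was named. All genotypes were given for members with a called log2 change of 1 or more in size, those called in 3 or 4 tables, the 8 highest in WT and those under a called peak. Genes of other lists could be named where called with a log2 change of 1 or more in size. Markers were fixed for leaf, root, floral organs and seed. The members and lists were chosen with earlier results of these data known. Alternatives were a threshold of 0.01, filters on low values, pseudocounts, centring, synonyms and the overlap.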

Additional observations from a re-analysis of the deposited data

Results flagged for a closer look

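The 3 members called in opposite directions in different mutants stand apart. UGT85A1, the trans-zeatin glucosyltransferase gene, had a log2 change of -0.45 in mbd124, 0.85 in sant1234-null and 0.58 in hda6, each against WT. UGT73C5, the brassinosteroid glucosyltransferase gene, had a log2 change of 0.46 in hhp1 and -0.66 in mbd124. UGT75C1, the anthocyanin 5-O-glucosyltransferase gene, had a log2 change of 0.90 in hhp1 and -1.09 in mbd124. The difference between mutants was not tested, since the tables hold 1 value per genotype and each change is against the same WT libraries.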

How the results depend on the processing

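No paired analysis was possible because the tables hold 1 value per genotype and no replicate values, and for the same reason no replicate could be left out. At a q-value under 0.01 in place of 0.05, 4 members were called in hhp1 (4 higher, 0 lower), 12 in mbd124 (5 higher, 7 lower), 16 in sant1234-null (2 lower) and 10 in hda6 (4 lower). At an FDR under 0.01, 23 peaks at members were called in sant1234-null (17 higher, 6 lower) and 6 in hda6 (0 higher, 6 lower). The other 72 values stayed within 1.5-fold of the main count or within the 95% interval of the main median over members. The sign of a median was not part of this check. The intervals of both H3ac medians held 0 (-0.10 to 0.19 in sant1234-null and -0.18 to 0.04 in hda6), so a median could change sign within them. Of 75 single calls, 33 were lost at a q-value under 0.01, among them the 4 of UGT76F2, and 42 held. All 75 kept their sign after centring and with a pseudocount of 1 FPKM, and 73 of 73 held among genes with a mean FPKM of at least 1. The 0 lower calls in hhp1 compare with 18 members, of either direction, at an unadjusted p under 0.05. RNA depth and replicate spread are unknown, so small changes at low FPKM cannot be judged here.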
